A study of Mus musculus with 7 samples.

Results

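Stretches of mouse chromosomes 6 and 16 held closely packed peaks of CTCF ChIP-exo 5.0 signal in the libraries of this series, and the peaks of both stretches are described here. The members were all peaks with a centre in mm10 chr6:47740001-47770000 (30 kb) or chr16:11420001-11430000 (10 kb). They numbered 1532 of the 2603994 peaks listed over all 7 libraries, with 1288 in the chromosome 6 array and 244 in the chromosome 16 array. The windows were chosen by their number of peaks in these data, so those numbers are a description and carry no test.

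The study asked whether a shortened ChIP-exo protocol maps CTCF in whole organs and in small numbers of cells. All 7 libraries came from wildtype mice and used an antibody to CTCF. Brain, lung, kidney and liver were each prepared from 100 mg of tissue of adult males aged 16 weeks, and the other 3 libraries were a titration of 2,700,000, 270,000 and 27,000 liver cells. The study estimated liver cell numbers from the wet weight of tissue, so these are not counts of cells. Each condition had 1 library, so no difference between conditions has a replicate check, and the Wilson 95% intervals given below cover counting error only. The labels give crosslinking at 0.3% formaldehyde, while the study's methods give 1% for the organs. The labels also name IgG in the extraction step, beside the CTCF antibody. A whole organ holds many cell types, so fewer bound cells and less binding per cell cannot be told apart.

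CTCF is a zinc finger protein that binds a long DNA motif, helps to fold chromosomes into loops together with cohesin, and is known for insulating genes from distant enhancers. In ChIP-exo an exonuclease digests each strand of the precipitated fragment from its 5′ end until it meets the crosslinked protein, so a tag, the 5′ end of a read, marks a stop. Forward-strand stops lie on the left of a bound site and reverse-strand stops on its right. Tandem repeats are neighbouring copies of a similar sequence in the same orientation, and short reads from them can be hard to place on 1 copy.

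No base sequence under the peaks was used here. The RefSeq promoter table of GRCm38.p6, the assembly of mm10, holds the starts of the long noncoding RNA genes Gm52861 and Gm52862, which overlap the chromosome 6 window. Both are shown because they are the stretches of sequence nearest the repeated sites whose letters were at hand. Gm52861 starts before the window and holds copies 1 and 2 of the site described below, and Gm52862 lies between copies 4 and 5. Capitals mark a match to AGNNGGC, letters from the core of the CTCF motif, searched on both strands (GCCNNCT on the other strand). The intervals are chr6:47738587-47738886 and chr6:47755016-47755315, both on the forward strand.
Gm52861: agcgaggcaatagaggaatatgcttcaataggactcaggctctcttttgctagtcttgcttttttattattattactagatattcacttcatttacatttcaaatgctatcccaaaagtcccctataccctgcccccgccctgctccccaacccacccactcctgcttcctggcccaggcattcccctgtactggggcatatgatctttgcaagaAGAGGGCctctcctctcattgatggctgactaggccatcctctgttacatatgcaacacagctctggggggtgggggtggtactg
Gm52862: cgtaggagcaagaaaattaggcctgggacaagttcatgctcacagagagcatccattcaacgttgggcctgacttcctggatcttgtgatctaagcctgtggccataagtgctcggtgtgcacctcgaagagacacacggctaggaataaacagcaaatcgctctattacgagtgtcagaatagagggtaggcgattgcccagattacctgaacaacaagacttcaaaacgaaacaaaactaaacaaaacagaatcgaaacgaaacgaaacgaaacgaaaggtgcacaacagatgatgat
The Gm52861 start held 1 match and the Gm52862 start held 0, where 59.8% of 32851 promoters of this length held at least 1. Peaks in these 2 stretches were listed only in the library of 2,700,000 cells, with 2 peaks of 4 tags in all at Gm52861 and 6 peaks of 14 tags at Gm52862. The other 6 libraries listed no peak there. A match is a run of letters and not a bound site.

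The listed tags, which are the depth of each library, ranged from 35594 with 27,000 cells to 6592538 with 2,700,000 cells. Peaks of 2 or more tags are listed, each 21 bp wide, so a 0 below means that no such peak was listed. In all, 13 of 259629 bins of 10 kb, or 0.00501%, held at least 20 peaks in each of the 6 larger libraries. The chromosome 16 window was 1 of them, and the chromosome 6 window held another 2 and the bin between these, where liver fell just short with 16 peaks. The same 3 bins of chromosome 6 held 32, 16 and 21 peaks in liver and 191, 174 and 167 with 2,700,000 cells.

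The chromosome 6 array held 156 peaks in brain, 241 in lung, 179 in kidney, 69 in liver, 532 with 2,700,000 cells, 106 with 270,000 cells and 5 with 27,000 cells. Per 10 kb these were 52.0, 80.3, 59.7, 23.0, 177, 35.3 and 1.67 peaks, where bins elsewhere held 1.14, 0.437, 1.65, 0.705, 5.32, 0.612 and 0.0310 on average. The next 10 kb bin upstream held 13, 9, 5, 4, 36, 8 and 0 peaks in that order of libraries, and the next downstream held 24, 33, 26, 10, 87, 21 and 1. In the 6 larger libraries both neighbouring bins thus held more peaks than bins elsewhere did on average, and the downstream bin held the more. The window's upstream edge was not the start of the signal. A further run of copies of the site described below lay farther upstream, past a stretch without peaks, and is given near the end.

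The peaks of chromosome 6 were not spread evenly. They clustered at 7 copies of a site. In the deepest library all 7 copies held tags at each of the stops described below. In every other library at least 1 copy lacked a listed stop. The stops were looked for in fixed spans, so their order was set by the spans. The first forward stops of copies 1 to 7 lay at 47740190, 47744451, 47748811, 47753145, 47757978, 47763575 and 47767882. Neighbouring copies were 4261, 4360, 4334, 4833, 5597 and 4307 bp apart, a median of 4347 bp, and 4 of the 6 distances lay between 4261 and 4360 bp. Copies 1 and 2 lay within Gm52861 (47738837 to 47747801), and copy 3 lay 1010 bp past its end. Copies 4 and 5 lay 2121 and 974 bp from Gm52862 (47755266 to 47757004), outside it. The nearest annotated gene downstream of the window was Rny3, which encodes a Y RNA, a small noncoding RNA of Ro ribonucleoprotein particles, at 11624 bp.

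**Figure D1:**
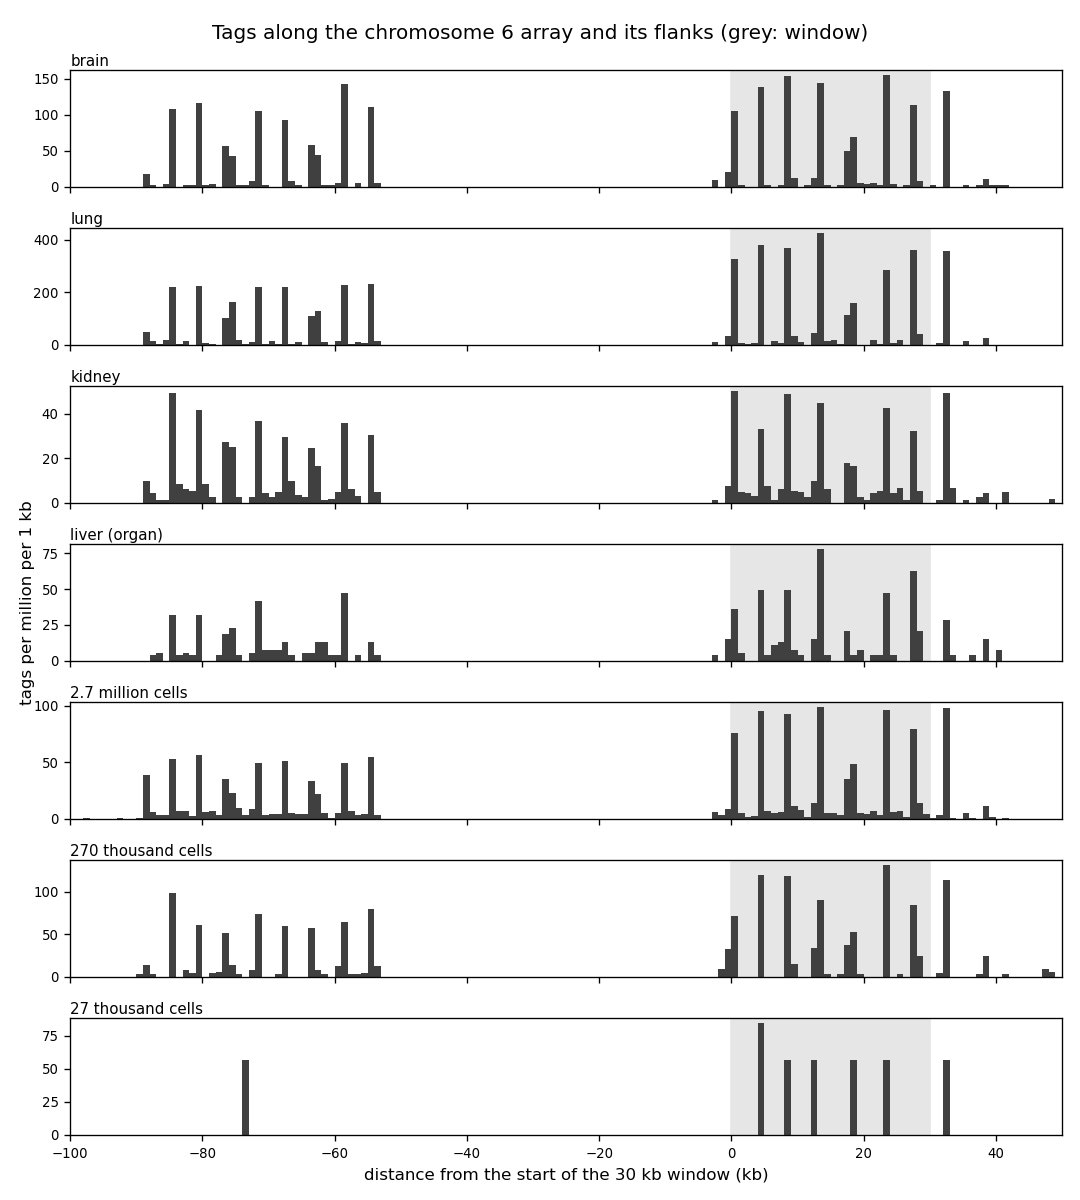
Tags per 1,000,000 listed tags in bins of 1 kb (vertical axis) against the distance from the start of the chromosome 6 window in kb (horizontal axis), with 1 panel per library and the 30 kb window in grey. Tall bars recur at about 4 kb in the window in all libraries except that of 27,000 cells, which holds 11 tags there, and similar bars stand before and after the window.

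The span from 100 bp before to 250 bp after the first forward stop of each copy covered 8.19% of the window in all. It held 85.6% of the window's tags in brain, 82.1% in lung, 63.0% in kidney, 71.4% in liver, 73.9% with 2,700,000 cells, 68.4% with 270,000 cells and 63.6% with 27,000 cells. The copies were placed where the summed, scaled tags of the organs were highest. Their high share of organ tags, and the presence of organ tags at each copy, follow in part from that choice. The cell inputs took no part in it, and most of their tags in the window also lay at the copies. The copies held a smaller share of the peaks, from 24.8% with 2,700,000 cells to 60.9% in brain, so that the peaks between copies were low.

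All 7 copies carried tags in each of the 6 larger libraries. Copies held between 105 and 152 tags in brain (median 126), between 156 and 282 in lung (217) and between 36 and 76 in kidney (56). In liver they held between 13 and 41 tags (median 20), with 2,700,000 cells between 449 and 599 (526), and with 270,000 cells between 40 and 59 (49). With 27,000 cells 3 copies held 2 or 3 tags and the others were listed at 0. Copies thus differed little in the deepest library and by larger ratios in the shallower ones.

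Copy 5 was the lowest in lung with 156 tags, in kidney with 36, in liver with 13 and with 2,700,000 cells with 449. Copy 1 was the lowest in brain with 105 tags and with 270,000 cells with 40, and with 2,700,000 cells it was level with copy 5 at 451. Copy 4 was the highest in lung with 282 tags, in liver with 41 and with 2,700,000 cells with 599. The highest copy was another one in the remaining libraries, namely copy 3 in brain with 152 tags, copy 1 in kidney with 76 and copy 7 with 270,000 cells with 59. No order of copies was thus shared by all libraries. How reads were placed among similar copies is not stated for the mouse libraries.

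Forward tags led at the left of the copies. Reverse tags were scattered farther right and, in brain, lung, kidney and with 2,700,000 cells, also near the first forward stop. Copy 4 in brain, for example, held 2 and 11 reverse tags at -10 and 17 bp. Stops were looked for in fixed spans, from -8 to 8, 18 to 35 and 59 to 78 bp on the forward strand and 60 to 80 bp on the reverse strand, which bound the medians below. The reverse tags near the first forward stop lie outside these spans. With 2,700,000 cells the first forward stop lay at a median of -1 bp over 7 copies, the second at 25 bp and the third at 68 bp, and the reverse stop also lay at 68 bp. In that library the third forward stop thus lay at the place of the reverse stop, and the reverse medians of the other larger libraries ran from 66 to 74 bp. Brain had its second forward stop at 24 bp, lung at 23.5, kidney at 24, liver at 24.5, and the libraries of 270,000 and 27,000 cells at 25 and 24. For the third the medians were 67 bp in brain, 68 in lung, 67 in kidney, 63.5 in liver and 66.5 with 270,000 cells. The medians of the second stop and those of the third lay within 5 bp of each other between libraries, less than the 21 bp width of a peak.

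**Figure D2:**
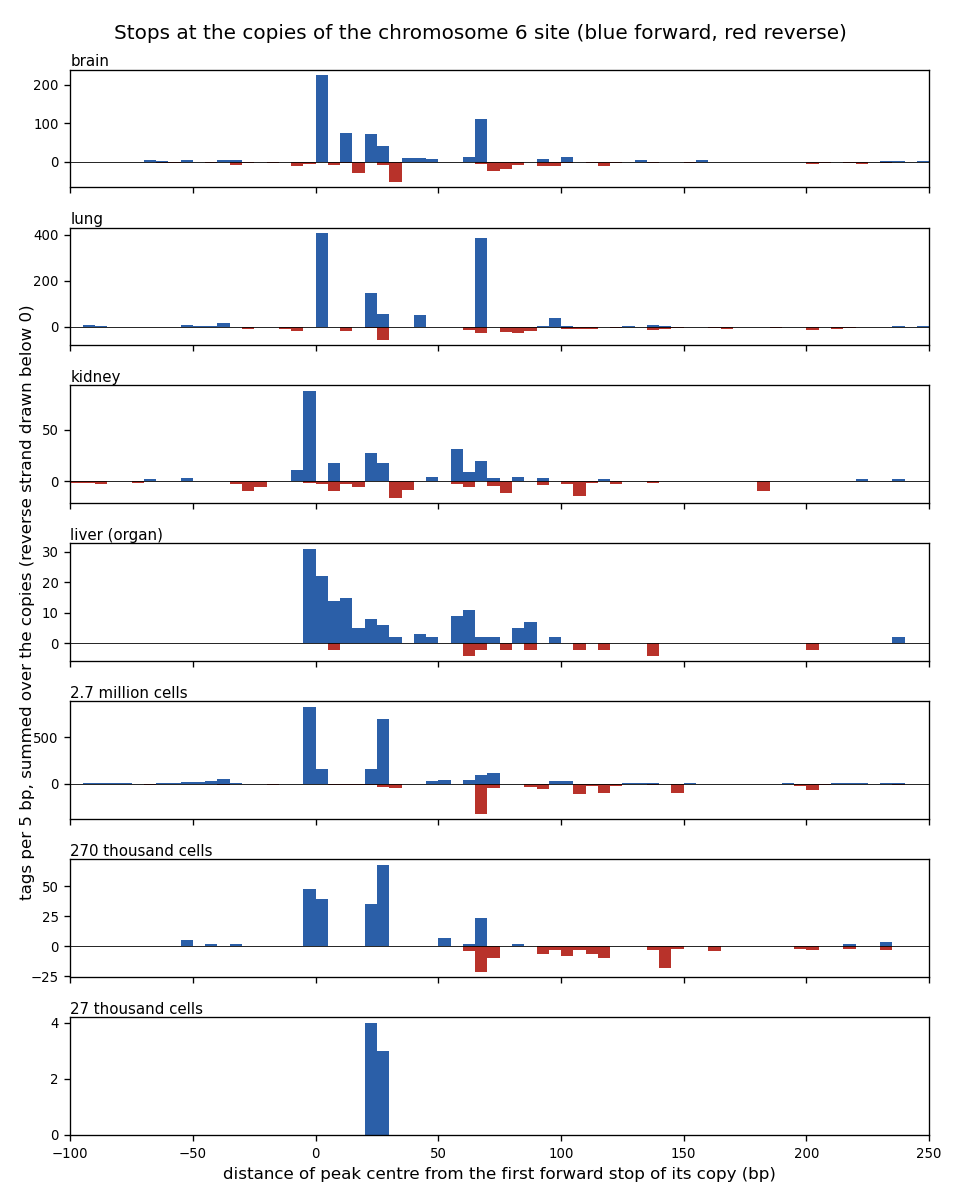
Tags per 5 bp, summed over the 7 copies of the chromosome 6 site (vertical axis, forward tags blue and upward, reverse tags red and downward), against the distance in bp from the first forward stop of the copy (horizontal axis), 1 panel per library with its own scale. Forward tags stand at 3 places in the larger libraries, and the third is about as tall as the first only in lung, with 388 and 409 tags.

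The balance of the 3 forward stops differed between libraries. Over the 7 copies the first, second and the third stops held 225, 114 and 125 tags in brain, and 409, 202 and 388 in lung. Kidney had 117, 46 and 41 tags and liver 67, 21 and 15 in that order. With 2,700,000 cells they held 986, 852 and 245 tags, and with 270,000 cells 87, 103 and 26. Lung had nearly as many tags at the third stop as at the first, whereas both larger cell inputs had nearly as many tags at the second stop as at the first, or more. In the library of 27,000 cells all 7 tags of the copies lay at the second stop.

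Of the tags at the first and the third stops together, the third held 48.7% in lung (95% interval 45.2 to 52.2), 35.7% in brain (30.9 to 40.9), 25.9% in kidney (19.7 to 33.3), 23.0% with 270,000 cells (16.2 to 31.6), 19.9% with 2,700,000 cells (17.8 to 22.2) and 18.3% in liver (11.4 to 28.0). The interval of lung did not meet that of any other library, and that of brain met only those of kidney and of 270,000 cells. The order of the other 4 was not resolved at this depth, since their intervals overlapped. With wider spans that met, an alternative chosen after seeing the data, lung still stood apart at 48.7% (45.2 to 52.2). Kidney then lay above brain, at 37.8% (31.1 to 44.9) and 33.6% (29.1 to 38.4), and the interval of brain also met that of liver at 26.1% (18.9 to 35). Where brain stood among the other libraries therefore depended on the spans. In lung the third stop held 40, 60, 70, 74, 28, 50 and 66 tags from copy 1 to copy 7, against 57, 62, 63, 65, 44, 53 and 65 at its first stop. At copies 3, 4 and 7 of lung the third stop thus held more tags than the first.

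**Figure D3:**
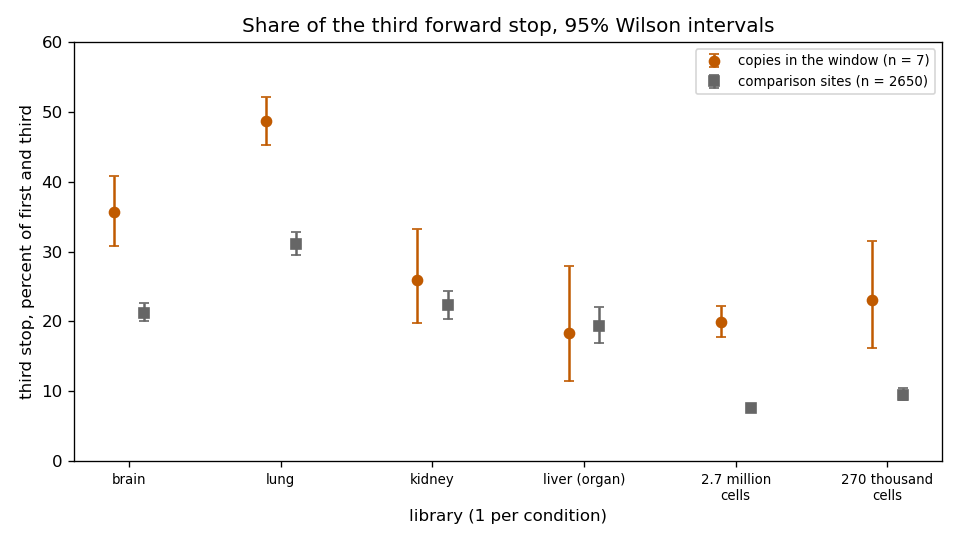
Tags at the third forward stop as a percent of those at the first and the third (vertical axis) by library (horizontal axis), with Wilson 95% intervals for counting error, for the 7 copies in the window (circles) and for 2650 comparison sites elsewhere (squares). Lung is the highest for both, at 48.7% and 31.1%. Outside the library of 2,700,000 cells most comparison sites held no listed first stop, and in lung 344 of the 2650 sites held it.

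For comparison, 2650 sites outside the dense bins were taken from the library of 2,700,000 cells by their first, second and reverse stops, so that their stops in that library are fixed in part by the choice. At these sites the third stop held 21.3% in brain (19.99 to 22.6), 31.1% in lung (29.5 to 32.8), 22.3% in kidney (20.4 to 24.4), 19.4% in liver (16.9 to 22.1), 7.55% with 2,700,000 cells (7.42 to 7.68) and 9.52% with 270,000 cells (8.71 to 10.4). Lung was again the highest, and brain did not stand above kidney there. Outside the library of 2,700,000 cells most of the 2650 sites held no listed first stop. It was listed at 666 sites in brain, 344 in lung, 285 in kidney, 206 in liver and 900 with 270,000 cells. The stop at 59 to 78 bp was listed at 197, 141, 97, 47 and 98 sites in that order. In the organs the 3 stops held 43.9%, 42.5%, 41.6% and 46.4% of forward tags at these sites. At the copies they held 74.0%, 86.6%, 82.3% and 69.6%. The share at the copies lay above that at the comparison sites in brain, lung and both cell inputs, with intervals that did not meet. In kidney and liver the intervals overlapped. With the spans that meet, the intervals of brain overlapped at 33.6% (29.1 to 38.4) for the copies and 29.1% (28.0 to 30.3) elsewhere. Those of kidney were apart, at 37.8% (31.1 to 44.9) against 28.4% (26.7 to 30.2), and lung gave 48.7% against 37.5%.

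The second stop differed in another way. Of the tags at the first and second stops it held 33.6% for brain, 33.1% for lung, 28.2% for kidney and 23.9% for liver, against 46.4% with 2,700,000 cells (44.1 to 48.6) and 54.2% with 270,000 cells (47.1 to 61.1). All 4 organs were thus below both cell inputs at the copies, whose first stops were placed from these organ libraries. At the comparison sites the order was the opposite, with 49.6%, 59.7%, 53.0% and 49.6% in the organs and 25% and 24.5% with the cell inputs, 1 of which chose the sites. Each set was thus placed by libraries in which its share of the second stop was low. The part of that choice in the order was not tested. The liver organ and the liver cells differed in this share although both are liver. Preparation and input cannot be told apart from the source of the material. In brain, stops at 14 bp of copy 3 with 36 tags and at 11 bp of copy 7 with 38 tags fell between the spans of the first and second stops and are not counted in either. The same holds for a stop at 12 bp of copy 4 in liver with 15 tags, as many as its highest peak.

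A weaker signal preceded the copies, between 400 and 101 bp before the first forward stop. Counting only what lies inside the window, which cuts off most of this span at copy 1, brain had 67 tags there, lung 147, kidney 54 and liver 11, with 416 at 2,700,000 cells, 124 at 270,000 cells and 2 at 27,000 cells. This was 6.49%, 7.98%, 8.85%, 4.62%, 8.41%, 24.4% and 18.2% of the tags of the window. The share was thus highest with 270,000 cells, and the same library had 37 tags in the rest of the window outside both sites. The span held tags at 3 copies in liver, at 6 in kidney, at 1 with 27,000 cells and at all 7 in the others.

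Forward tags exceeded reverse tags in the chromosome 6 array. They made up 69.1% in brain, 75.04% in lung, 61.3% in kidney, 79.0% in liver, 60.5% with 2,700,000 cells and 67.4% with 270,000 cells, and all 11 tags with 27,000 cells. Peaks were more even, with 80 forward and 76 reverse peaks in brain, 129 and 112 in lung, 85 and 94 in kidney, 46 and 23 in liver, 237 and 295 with 2,700,000 cells, 58 and 48 with 270,000 cells and 5 and 0 with 27,000 cells. In kidney and with 2,700,000 cells forward tags thus exceeded reverse tags although forward peaks were fewer.

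A forward peak with a reverse peak 10 to 80 bp downstream was counted as a pair. A bound protein gives this arrangement, and closely packed peaks can give it too. On chromosome 6, 66.3% of forward peaks were in a pair in brain, 55.0% in lung, 43.5% in kidney, 34.8% in liver, 72.2% with 2,700,000 cells, 55.2% with 270,000 cells and none of 5 with 27,000 cells. Outside the dense bins the shares were 9.02%, 9.15%, 2.15%, 1.92%, 28.6%, 6.32% and 0.467%, and in the other 10 dense bins of the genome they ran from 77.8% to 96.8%. The chromosome 6 array thus lay between the rest of the genome and the other dense bins. Peak density differed in the same way, as given above, and its part in the share of pairs was not tested.

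The order of strands along the array varied between libraries. Among neighbouring peaks within 100 bp, a reverse peak was followed by a forward one in 32.0% of cases in brain, 29.2% in lung, 29.9% in kidney, 17.9% in liver, 26.1% with 2,700,000 cells and 12.05% with 270,000 cells. Outside the dense bins these were 17.2%, 13.5%, 20.3%, 16.1%, 12.8% and 6.08%. In the other dense bins they were 33.2%, 31.7%, 33.9%, 34.6%, 36.5% and 34.8%, above the array in each of these libraries. The forward to reverse order was about as frequent as its opposite inside the array, at 43 against 39 cases in brain, 59 and 59 in lung and 132 and 120 with 2,700,000 cells. Neighbours on the same strand, forward and reverse, numbered 23 and 17 in brain, 46 and 38 in lung, 19 and 26 in kidney, 20 and 4 in liver, 75 and 132 with 2,700,000 cells and 32 and 27 with 270,000 cells. Neighbours on opposite strands were therefore the more frequent in brain, lung and kidney and slightly so with 2,700,000 cells, while those on 1 strand were the more frequent in liver and with 270,000 cells. Neighbouring peaks of 1 strand were a median of 30 bp apart in brain, 31 in lung, 30 in kidney, 24 in liver, 32 with 2,700,000 cells and 29 with 270,000 cells. The smallest such gap listed anywhere was 11 bp, which bounds the spacing that the peak caller can give.

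The stddev that the files list for each peak is the spread of its tag positions in bp, and a value of 0 means that all tags start at 1 position. Such peaks made up 5.77% of the chromosome 6 array in brain (9 peaks), 20.3% in lung (49), 8.38% in kidney (15), 8.70% in liver (6), 3.95% with 2,700,000 cells (21), 3.77% with 270,000 cells (4) and 40% with 27,000 cells (2). Outside the arrays they were 83.2%, 83.2%, 91.5%, 76.4%, 33.2%, 76.1% and 72.8% of peaks. Peaks of 1 position were therefore rarer in the array than elsewhere in the 6 larger libraries, while the share with 27,000 cells rests on 5 peaks and its interval of 11.8 to 76.9% holds the share outside. No peak of 5 or more tags in the chromosome 6 array was of 1 position, whereas outside the arrays 69.96% of such peaks were in brain, 86.8% in lung, 89.5% in kidney, 2.09% in liver, 0.485% with 2,700,000 cells and 64.5% with 270,000 cells. Peaks with any spread had a median stddev of 4.18 bp in brain, 4 in lung, 3.30 in kidney, 3.5 in liver, 4.02 with 2,700,000 cells and 4 with 270,000 cells, beside 3.03, 2.83, 3, 3.5, 3.90 and 3.04 outside.

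Some positions recurred between libraries. Taking same-strand peaks with centres within 5 bp as 1 position, 40 of 913 positions on chromosome 6, or 4.38%, were held by 4 or more libraries, 25 of them forward and 15 reverse. Outside the dense bins the share was 0.0945% and in the other dense bins 21.9%. A total of 7 positions were held by 6 libraries and none by all 7. Peak density differed between the array and the sets beside it, and its part in these shares was not tested.

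The position with the highest mean of tags per 1,000,000 listed tags was the first forward stop of copy 4, at 47753145, with 39 tags in brain, 65 in lung, 22 in kidney, 15 in liver, 157 with 2,700,000 cells, 8 with 270,000 cells and 0 with 27,000 cells. Its stddev was 5.98, 5.46, 3.73, 4.53, 5.63 and 3.82 bp in the libraries that held it. The second was the second forward stop of copy 2, at 47744476, with 28, 29, 9, 0, 117, 13 and 3 tags in the same order. Its rank rests on the 3 tags of the smallest library, each of which weighs more than a tag of any other. The first forward stops of copy 3, copy 2 and copy 5 followed, at 47748811 with 34, 63, 18, 11, 146, 12 and 0 tags, at 47744451 with 44, 62, 0, 3, 139, 12 and 0 tags, and at 47757978 with 36, 44, 13, 11, 138, 14 and 0 tags. Of these 5 positions 4 were first forward stops of the repeated site, whereas the highest peak of lung was the third stop of copy 4, at 47753213 with 74 tags. With 270,000 cells the highest was the second stop of copy 6, at 47763601 with 22 tags.

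The array on chromosome 16 was far shorter. It held 49 peaks in brain, 48 in lung, 31 in kidney, 24 in liver, 67 with 2,700,000 cells, 23 with 270,000 cells and 2 with 27,000 cells. The bin before it held 5, 1, 5, 3, 24, 1 and 0 peaks, and the bin after it 1, 1, 3, 0, 8, 0 and 0. Most peaks lay in a core of 741 bp, from 11423485 to 11424225, which held 48, 46, 29, 20, 49, 20 and 2 of the peaks and between 85.7% and 100% of the tags of the window. The core lay within Snx29, which encodes a sorting nexin, a protein of membrane traffic, 100624 bp from its annotated start. Its exon or intron is not given, since the gene table used here holds no exons.

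**Figure D4:**
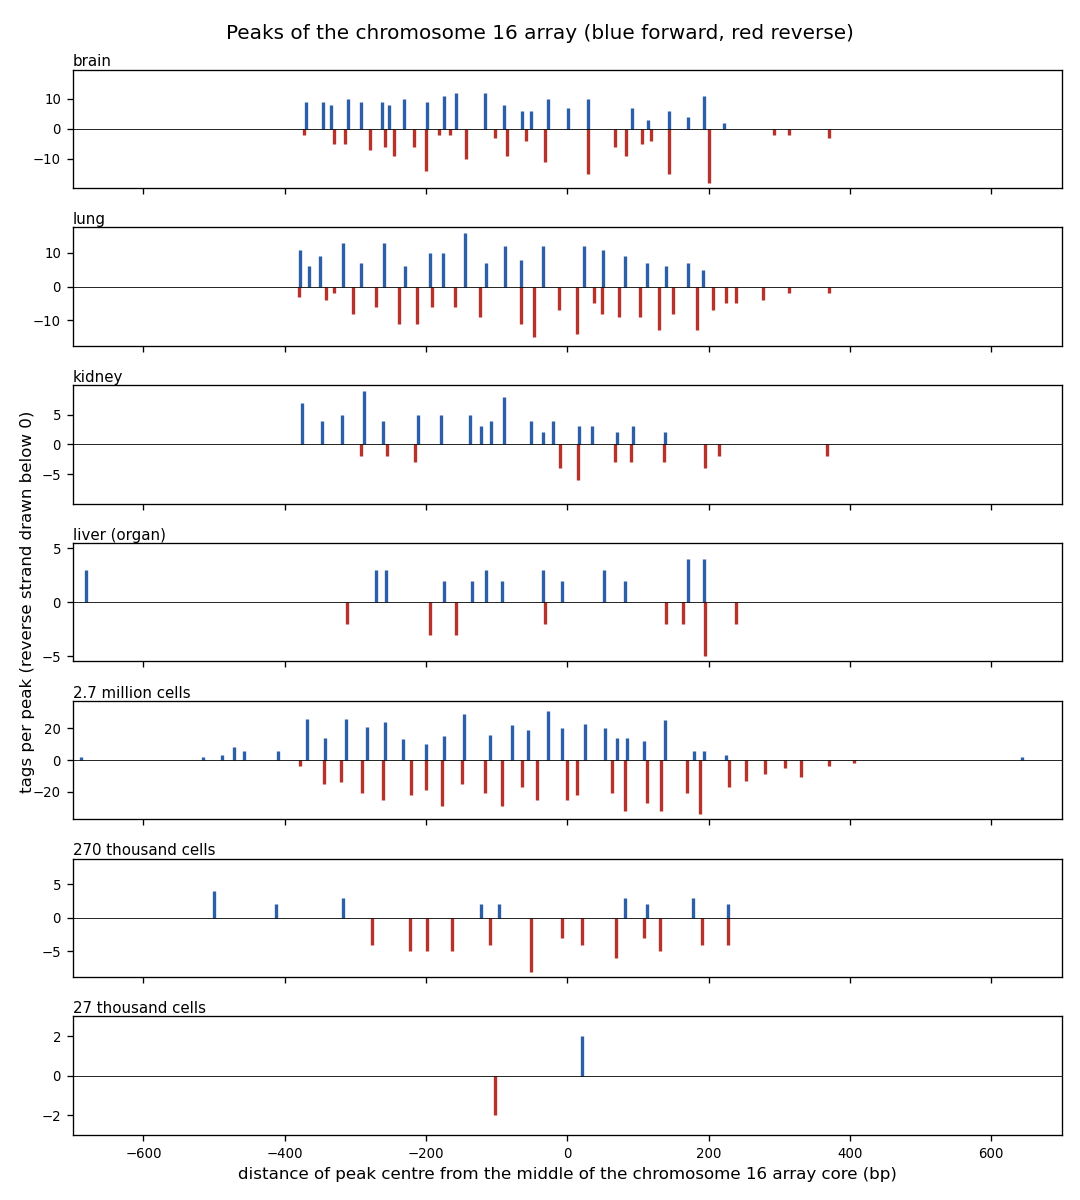
Tags of each peak (vertical axis, forward tags blue and upward, reverse tags red and downward) against the distance of its centre from the middle of the chromosome 16 core in bp (horizontal axis), 1 panel per library with its own scale; peaks farther out in the window are not drawn. Peaks of both strands alternate along the core at similar heights, and no single peak stands out.

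Tags were spread over the core and not gathered at 1 site. The highest peak of brain held 18 tags, that of lung 16, of kidney 9 and of liver 5, beside 34 with 2,700,000 cells, 8 with 270,000 cells and 2 with 27,000 cells. The median peak of the core held 8, 8, 3, 2.5, 20, 4 and 2 tags in that order. In brain and lung the highest peak thus stood nearer to the median peak than on chromosome 6, where the highest peak held 44 and 74 tags and the median peak 3 in both.

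The strands alternated more fully than on chromosome 6. In brain 18 neighbouring peaks within 100 bp went from forward to reverse and 18 from reverse to forward, with 6 and 6 neighbours on the same strand. Lung had 18 and 18 of the alternating orders and 3 and 8 of the same strand, and 2,700,000 cells had 20 and 18 against 9 and 9. Kidney differed, with 7 and 6 alternating neighbours and 12 pairs of forward neighbours. The reverse to forward share was 37.5% in brain and 38.3% in lung, above the 33.2% and 31.7% of the other dense bins. It was below those bins in kidney (21.4% against 33.9%) and liver (26.3% against 34.6%). The same held with 2,700,000 cells (32.1% against 36.5%) and 270,000 cells (28.6% against 34.8%). Of the forward peaks 95.8% were in a pair in brain, 100% in lung, 68.4% in kidney, 46.7% in liver, 76.5% with 2,700,000 cells and 66.7% with 270,000 cells. In the other dense bins the shares were 93.7%, 90.4%, 93.7%, 95.1%, 96.8% and 94.4% in that order. Outside the dense bins they were 9.02%, 9.15%, 2.15%, 1.92%, 28.6% and 6.32%. Brain and lung thus lay somewhat above the other dense bins, on 24 and 21 forward peaks. Kidney, liver and both cell inputs lay below them. In the core, reverse peaks lay a median of 23 bp apart in brain, 26 in lung and 28 with 2,700,000 cells. At such gaps a forward peak can meet the pair rule by density alone, and that part was not tested.

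Neighbouring same-strand peaks on chromosome 16 were a median of 25 bp apart in brain, 28 in lung, 30 in kidney, 31 in liver, 28 with 2,700,000 cells and 45.5 with 270,000 cells. Only lags from 15 to 45 bp were searched, so a longer repeat could not have been found. Within that range no regular spacing common to the libraries was found. The lag with the highest autocorrelation of forward tags was 25 bp in brain (r 0.16), 31 in lung (0.29), 31 in kidney (0.30), 23 in liver (0.17) and 28 with 2,700,000 cells (0.30), which are descriptions over positions of 1 library each. Reverse tags gave 39 bp in brain, 35 in lung, 26 in kidney, 21 with 2,700,000 cells and 37 with 270,000 cells. The forward lags were of the same size as the median gap, which lay within the searched range in these libraries. The lags of both strands differed between libraries.

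Peaks of both strands spanned the core, and the mean position of reverse tags lay to the right of that of forward tags in 5 libraries. The tag-weighted mean position of reverse peaks was 91.1 bp to the right of that of forward peaks in brain, 96.4 in lung, 170 in kidney, 48.0 in liver and 84.6 with 2,700,000 cells. With 270,000 cells it was -33.3 bp, on the other side, with 7 forward and 13 reverse peaks in the core, and with 27,000 cells it was -123 bp, from 1 peak of each strand. Forward tags made up 53.0% of the chromosome 16 window in brain, 49.3% in lung, 67.8% in kidney, 63.5% in liver, 45.2% with 2,700,000 cells and 27.1% with 270,000 cells. The chromosome 16 array thus had no common excess of 1 strand, unlike chromosome 6.

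Of 131 positions on chromosome 16, 11 or 8.40% were held by 4 or more libraries, 10 of them forward and 1 reverse, and 3 were held by 5. The share was 0.0945% outside the dense bins and 21.9% in the other dense bins. Same-strand peaks lay so close together that those of different libraries can fall within 5 bp by packing alone. That part was not tested. The 2 positions with the highest such mean, 11423876 on the forward and 11423753 on the reverse strand, owed their rank to 2 tags each in the library of 27,000 cells, where 2 tags make 56.2 per 1,000,000. The third, the forward position 11423596, had 9 tags in brain, 13 in lung, 4 in kidney, 3 in liver, 24 with 2,700,000 cells and 0 with both smaller inputs. The fifth, the forward position 11423679, had 11, 10, 5, 2, 15, 0 and 0 tags. These positions were present in all 4 organs, at levels near the median peak. The fourth, the reverse position 11423808, had 15 tags in lung, 25 with 2,700,000 cells, 8 with 270,000 cells and 0 elsewhere. Peaks of 1 position were 6.12%, 8.33%, 9.68%, 20.8%, 7.46%, 4.35% and 50% of the window's peaks, again under the shares outside the arrays in the 6 larger libraries.

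Scaled to the library total, both arrays were highest in lung, except that brain led on chromosome 16 with peaks of at least 5 tags alone, at 0.0939% against 0.0682%. The chromosome 6 array held 1032 tags or 0.0999% of the listed tags in brain (95% interval 0.0940 to 0.106), 1843 or 0.267% in lung (0.255 to 0.279), 610 or 0.0373% in kidney (0.0345 to 0.0404), 238 or 0.0452% in liver (0.0398 to 0.0513), 4944 or 0.0750% with 2,700,000 cells (0.0729 to 0.0771), 509 or 0.0795% with 270,000 cells (0.0728 to 0.0867) and 11 or 0.0309% with 27,000 cells (0.0173 to 0.0553). Lung was followed by brain. With all listed tags counted, the 2 larger cell inputs did not differ beyond counting error. Without peaks of 1 position they lay farther apart, at 0.0877% with 2,700,000 cells and 0.195% with 270,000 cells. Liver and kidney overlapped in their intervals, and the interval of 27,000 cells spanned both.

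On chromosome 16 the array held 370 tags or 0.0358% in brain (0.0324 to 0.0397), 400 or 0.0578% in lung (0.0525 to 0.0638), 121 or 0.00740% in kidney (0.00619 to 0.00884), 63 or 0.0120% in liver (0.00934 to 0.0153), 989 or 0.0150% with 2,700,000 cells (0.0141 to 0.0160), 85 or 0.0133% with 270,000 cells (0.0107 to 0.0164) and 4 or 0.0112% with 27,000 cells (0.00437 to 0.0289). Lung and brain led here too. Liver and the 3 cell inputs had overlapping intervals, and kidney lay below all of them but the smallest input.

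**Figure D5:**
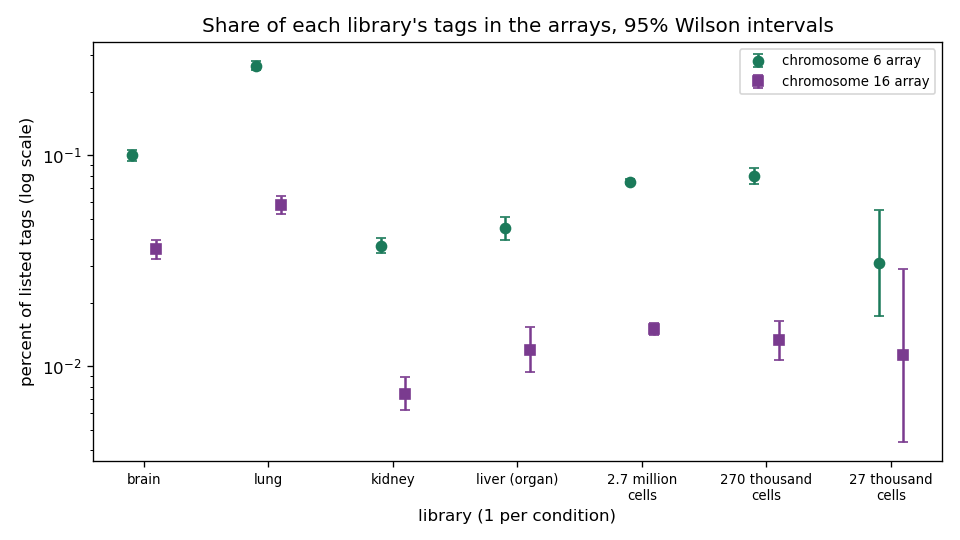
Tags of the chromosome 6 array (circles) and of the chromosome 16 array (squares) as a percent of all listed tags (vertical axis, log scale) by library (horizontal axis), with Wilson 95% intervals for counting error. With all listed peaks lung is the highest for both arrays, at 0.267% and 0.0578%, and brain the next.

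The shares depended on the peaks of 1 position, which take part in the library total far more than in the arrays. Without them the chromosome 6 array held 0.379% in brain, 1.30% in lung, 0.199% in kidney, 0.101% in liver, 0.0877% with 2,700,000 cells and 0.195% with 270,000 cells. The chromosome 16 array then held 0.136%, 0.290%, 0.0385%, 0.0232%, 0.0175% and 0.0323%. Lung and brain remained the highest for both arrays, while kidney moved above liver and above the library of 2,700,000 cells. Kidney and 270,000 cells lay close on chromosome 6, at 0.199% and 0.195%. On chromosome 16 they were at 0.0385% and 0.0323%, and their order was not tested. The order of kidney and the liver libraries therefore depended on how tags at 1 position were counted.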

How the data were processed

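CTCF ChIP-exo 5.0 was measured in 7 mouse libraries, 1 per condition, grouped by their labels. The authors' deposited peak lists give, per peak, the count of tags and the standard deviation of tag positions in bp, which served as the spread score. Per the labels, reads were aligned to mm10, and the submitters' processing notes name bcl2fastq 2.16 and BWA 0.7.9a. The files name genetrack as the peak caller. The study's methods give paired reads of 40 bp and remove non-unique alignments and PCR duplicates, a step stated there for yeast and human libraries and not for mouse. How mouse reads with several possible places were treated is thus not given in the sources used here.

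Tags were divided by the sum of all listed tags of the library. Proportions carry Wilson 95% intervals, which cover counting error only, since tags are not proven to be independent molecules. With 1 library per condition no test between conditions was made. Copies were found as spans of 500 bp with the most scaled tags of both strands, summed over the 4 organ libraries. Spans below 25% of the highest were left out. The first stop of a copy was the first forward position with at least 50% of the tags of its highest one. Stops were summed from -8 to 8, 18 to 35 and 59 to 78 bp on the forward strand and from 60 to 80 bp on the reverse strand. Comparison sites needed at least 20 tags at the first stop and 5 at the second and reverse stops with 2,700,000 cells, and lay at least 300 bp apart. The named positions were the 5 with the highest mean share of library tags and the highest of each library in each array. Genes and promoters came from RefSeq GRCm38.p6. The members and lists were chosen with earlier results of these data known. Steps were tested on simulated data. Alternatives concerned the denominator, peaks of 1 position, a minimum of 5 tags, the pair distance and the position tolerance. Intervals used statsmodels 0.14.6, plots matplotlib 3.10.9, and tables pandas 2.3.3 with numpy 2.4.6 and scipy 1.17.1 under Python 3.11.15.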

Additional observations from a re-analysis of the deposited data

Results flagged for a closer look

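Copies of the chromosome 6 site also stood outside the 30 kb window, where the described comparisons did not use them. A run of 8 copies had first forward stops from 47655310 to 47685616, at distances of 4301 to 4343 bp (median 4337). Brain had 717 tags there, lung 966, kidney 316 and liver 99, with 2135 at 2,700,000 cells, 213 at 270,000 cells and 0 at 27,000 cells, and all 8 held tags in each of the 6 larger libraries. The first of them lay 216 bp beyond the end of Rn4.5s, a small noncoding RNA gene of rodents on chromosome 6 from 47654921 to 47655094. Several of these copies lay within predicted genes, among them Gm40369, Gm40367, Gm40365, Gm36327, Gm40364 and Gm40363.

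One more copy followed the window at 47772288, 4406 bp after copy 7, with 125 tags in brain, 219 in lung, 79 in kidney, 13 in liver, 576 with 2,700,000 cells, 65 with 270,000 cells and 2 with 27,000 cells. Between the upstream run and the window, no library listed a peak from 47686920 to 47737063, a stretch of 50143 bp.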

How the results depend on the processing

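Each comparison rests on 1 library per condition, and the smallest held 11 and 4 tags in the arrays, so its shares have wide intervals. How reads were placed among similar copies is not given, which limits the values of single copies. No paired analysis was possible because each condition had 1 library, and no replicate could be left out. Of 70 alternatives of the main values 17 stayed within counting error or within 1.5 times and 53 moved. Over other values 49 stayed and 33 moved. The cause of the moves was not tested beyond the construction of each alternative.

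Shares of library tags follow in the order brain, lung, kidney, liver, 2,700,000 cells and 270,000 cells. With only tags outside dense bins, the mitochondrial genome and unplaced sequences as the denominator, the chromosome 6 array held 0.112%, 0.283%, 0.0423%, 0.0602%, 0.0825% and 0.105%, and the chromosome 16 array 0.0400% in brain, 0.0159% in liver, 0.0165% with 2,700,000 cells and 0.0175% with 270,000 cells. Without peaks of 1 position these were 0.379%, 1.30%, 0.199%, 0.101%, 0.0877% and 0.195% on chromosome 6, and 0.136%, 0.290%, 0.0385%, 0.0232%, 0.0175% and 0.0323% on chromosome 16. With each such peak counted as 1 tag they were 0.198%, 0.778%, 0.0864%, 0.0632%, 0.0814% and 0.132%, and 0.0707%, 0.170%, 0.0167%, 0.0155%, 0.0163% and 0.0220%. With peaks of at least 5 tags alone they were 0.215% in brain, 0.251% in lung, 0.0795% in liver, 0.101% with 2,700,000 cells and 0.112% with 270,000 cells on chromosome 6, and 0.0939% in brain, 0.0682% in lung, 0.00368% in liver and 0.0241% with 2,700,000 cells on chromosome 16. Lung and brain led in this order under every alternative, except that brain led lung on chromosome 16 with peaks of at least 5 tags. No such peak was listed in the library of 27,000 cells, which gave no value there.

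The peaks of chromosome 6 fell from 1288 to 339 with at least 5 tags, and to 19 at the level that 2 tags are worth in the smallest library. Those of chromosome 16 fell from 244 to 145 and 2. Positions held by 4 or more libraries changed on chromosome 6 from 40 to 16 within 2 bp, 66 within 10 bp and 18 with at least 5 tags, and on chromosome 16 from 11 to 4, 28 and 1. The pairs, 380 and 96 in all, stayed within 1.5 times. Chosen after seeing the data, spans of stops that meet gave a share of the third stop of 33.6%, 48.7%, 37.8%, 26.1%, 23.7% and 28.7% over the copies.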
